A study of Ambystoma mexicanum with 8 samples.

Results

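The translation initiation factors of the axolotl, Ambystoma mexicanum, were described in limb cells profiled by droplet single-cell RNA sequencing. They were taken from the gene list by name: every identifier whose last symbol starts with EIF and a digit from 1 to 6 was a member, which gave 71 identifiers with 50 symbols among 60956 listed genes. The tested groups were 4 Contra libraries (numbers 1, 2, 3 and 5) and 4 Intact libraries (numbers 1, 3, 4 and 5), all of limb tissue from animals of wild-type genotype. The design text names systemically activated limbs 14 days after an amputation and homeostatic limbs. Contra, which is not spelled out in the labels, was taken for the systemically activated limbs, and Intact for the homeostatic ones. All libraries share the same sort: live cells with a doubled DNA content (4C) were taken from Liberase-dissociated limbs. The labels give no age or sex and do not say that each library came from an animal of its own. P-values for Contra against Intact therefore measure the spread between libraries. Those between cell classes come from a fit with library as a block, and measure the spread left after it.

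Translation starts when the small ribosomal subunit, carrying the initiator tRNA bound to eIF2, is brought to an mRNA and scans to a start codon. The cap-binding complex eIF4F (the cap-binding protein eIF4E, the scaffold eIF4G and the helicase eIF4A) and the many-subunit eIF3 recruit the mRNA, eIF1, eIF1A and eIF5 govern start codon choice, and eIF5B joins the large subunit. The pathway is turned down at 2 known points: the eIF4E-binding proteins block eIF4E from eIF4G, and 4 stress kinases phosphorylate the alpha subunit of eIF2, which then holds its exchange factor eIF2B inactive.

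Contra libraries held 4685 to 7385 cells and 39721939 to 99777499 UMIs each, and Intact libraries 1614 to 4198 cells and 13344968 to 69023082 UMIs. A UMI is a molecular tag that keeps amplified copies from being counted again. Of 34149 cells, 33860 had at least 500 genes and were kept, 22938 of Contra and 10922 of Intact. In all, 135 barcode sequences occurred in more than 1 library, and no doublet caller was run. Cells were put in a class where at least 3 of its markers were detected and these made up at least 2 times the fraction of any other class's markers, none of them an initiation factor. This gave 12160 connective tissue-like cells (median depth 13787 UMIs), 9528 epidermal-like cells (4522), 2095 endothelial-like cells (8257), 438 macrophage-like cells (13963) and 1254 erythroid-like cells (14520). A further 7897 cells had no class, 5132 of them because markers of a second class were detected too. Markers left out of the gate gave a check of 3 of the names, in CPM (counts scaled to one common library total). COL1A1 stood at 22072 CPM in connective tissue-like cells and at most 1634 in the other tested classes, KRT12 at 17302 in epidermal-like cells and at most 96.6, and HBG1 at 117420 in erythroid-like cells and at most 318. The endothelial markers outside the gate, ERG and ROBO4, were detected in 7 and 19 cells of all kept cells, too few for a check, and the macrophage list had no detected marker outside the gate. Of 18 listed erythroid markers 6 were at 0 in all cells, among them GATA1 and HBB, as were 4 of 16 macrophage and 3 of 21 epidermal markers.

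The members made up 0.624% of all UMIs. The 17 eIF3 identifiers held 31.1% of the members' UMIs, the 15 of eIF4F and its helpers 26.9%, the 15 of eIF2 and eIF2B 16.4%, and the 6 of start codon selection 14.8%. The remaining groups were small: eIF5B and eIF6 with 3.29%, the eIF4E inhibitors with 3.21%, the eIF2 kinases with 2.58%, EIF2A and EIF2D with 0.717%, the exon junction helicase EIF4A3 with 0.693% and eIF5A with 0.257%. A total of 13 symbols had several identifiers, and no source used here gives how reads that match several of them were split. Of the 71 identifiers, 6 had under 100 UMIs and 14 under 1000. EIF3A, a core eIF3 subunit, had 30 UMIs in all cells and EIF4H, a helper of eIF4A, had 294, and neither could be tested between classes. Reads were counted at the 3' end, so levels are compared between cells and not between genes.

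Summed over members, connective tissue-like cells had 63.5 ± 4.17 member UMIs per 10000 (SD over 8 libraries), epidermal-like cells 65.9 ± 6.66, endothelial-like cells 58.3 ± 5.24 and macrophage-like cells 62.9 ± 5.89. Erythroid-like cells stood apart at 24.6 ± 1.75, and their range of 21.5 to 26.5 did not meet that of any other tested class. In them 10 genes held 74.1% of the UMIs, against at most 0.246% in the other classes. Shares of the members' own UMIs are free of that and of any scaling, and they are given first.

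**Figure D1:**
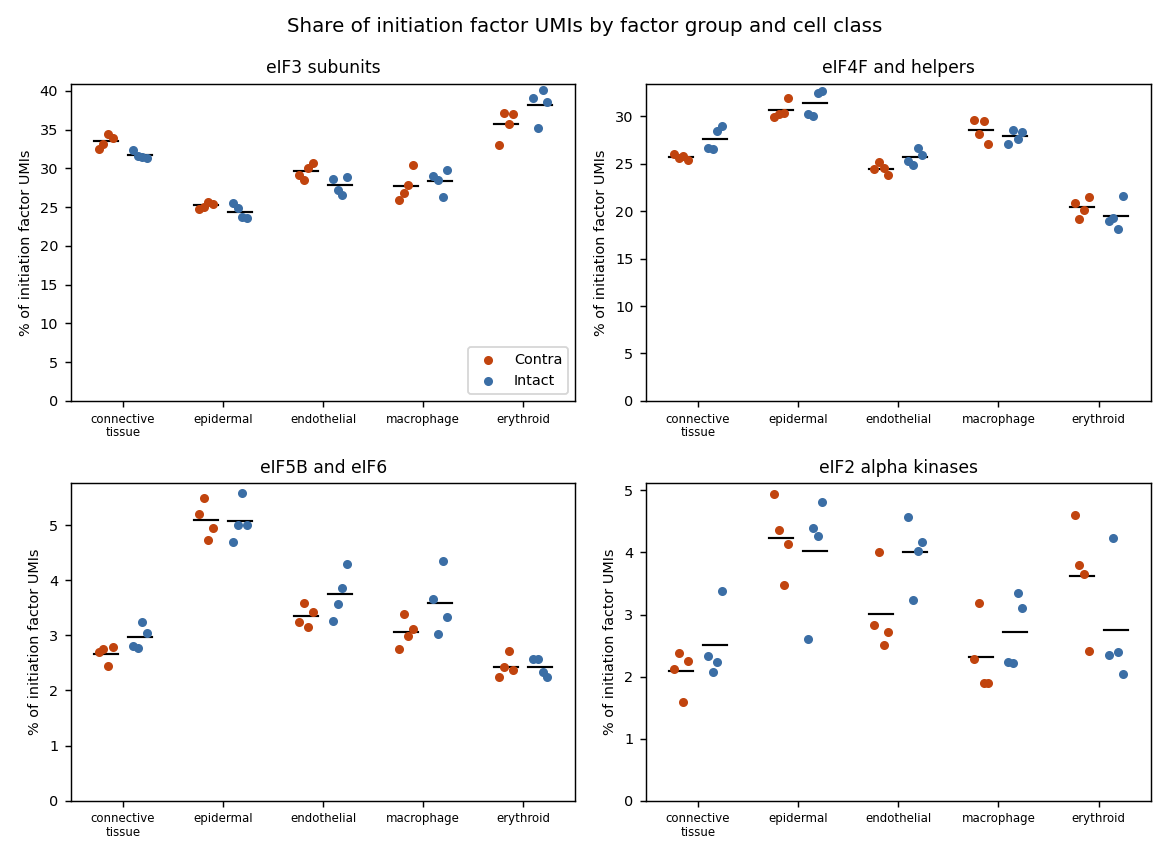
Share of the initiation factor UMIs (%) held by eIF3, eIF4F and its helpers, eIF5B with eIF6, and the eIF2 kinases, in 5 cell classes; each point is a library, Contra left and Intact right, and bars are means. Epidermal-like cells had the lowest eIF3 share and the highest eIF4F share in 8 of 8 libraries, and erythroid-like cells the reverse.

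The make-up of the initiation factor pool differed most between epidermal-like and erythroid-like cells, as the plot of group shares shows. The eIF3 subunits took 24.8% ± 0.77 (SD, 8 libraries) of the members' UMIs in epidermal-like cells, with a highest library of 25.7%, against a lowest value of 25.9% in any other class. In erythroid-like cells they took 37.0% ± 2.30, the highest share in 8 of 8 libraries. The order was turned for eIF4F and its helpers, with 31.0% ± 1.17 in epidermal-like cells (29.9 to 32.7%, other classes up to 29.6%) and 19.95% ± 1.25 in erythroid-like cells (18.2 to 21.6%, other classes from 23.8%). Connective tissue-like, endothelial-like and macrophage-like cells lay between, at 32.6, 28.7 and 28.1% for eIF3 and 26.7, 25.1 and 28.2% for eIF4F. The pair of eIF5B and eIF6 took 5.08% ± 0.33 in epidermal-like cells, above the 4.34% that was the highest value elsewhere.

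For single genes, counts were summed per library and class and fitted with edgeR's quasi-likelihood test, each class against the mean of the other 4, with library as a block and Benjamini-Hochberg adjustment over the 22710 genes tested. Of the members, 59 could be tested, and 58 of these passed an adjusted p of 0.05 in at least 1 class. The share of all genes that did so was not counted, so this number shows nothing particular to the members. Members called higher and lower numbered 12 and 18 in connective tissue-like cells, where 32.5% of all genes were higher and 27.4% lower. They numbered 27 and 13 in epidermal-like cells (35.1% and 30.8% of all genes), and 5 and 33 in endothelial-like cells (22.6% and 22.3%). They numbered 2 and 22 in macrophage-like cells (20% and 26%), and 36 and 9 in erythroid-like cells (17.3% and 27.5%). The median log2 fold change of the members was -0.36 in endothelial-like cells against -0.02 for all genes, and 0.49 in erythroid-like cells against -0.18. In epidermal-like, macrophage-like and connective tissue-like cells it was 0.20, -0.24 and -0.00, against -0.02, -0.15 and 0.03 for all genes.

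These counts depend on how the classes are scaled. The fit above used TMM, a scaling to the bulk of the genes. Scaled to total counts alone, the members called higher and lower were 37 and 7 in connective tissue-like (51% and 15.4% of all genes), 42 and 6 in epidermal-like (46.8% and 17.6%), and 35 and 0 in endothelial-like cells (62.9% and 6.75%). They were 29 and 3 in macrophage-like (36.4% and 11.7%) and 0 and 57 in erythroid-like cells (2.19% and 92.8%), with the median of all genes moved to -1.99 in erythroid-like and to between 0.31 and 0.64 in the other cells. With the erythroid-like sums left out, an alternative added after seeing the data, 30 of 30 members called in connective tissue-like cells stayed on their side of the all-gene median. So did 37 of 40 in epidermal-like, 37 of 38 in endothelial-like and 20 of 24 in macrophage-like cells. Called members lie away from that median to begin with, so most were likely to stay. The members' median minus that of all genes went from -0.34 to -0.19 in endothelial-like and from -0.08 to 0.03 in macrophage-like cells. It went from -0.03 to 0.06 in connective tissue-like and from 0.22 to 0.38 in epidermal-like cells. Leaving out these sums also changes the classes that each class is compared with. A change of scaling alone moves all genes of a class by nearly the same amount. Distances from the all-gene median therefore stay nearly the same by construction, and are given below only to place a value. Directions below are relative to the bulk of the genes, and levels are TMM-scaled CPM of the fit with TMM.

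**Figure D2:**
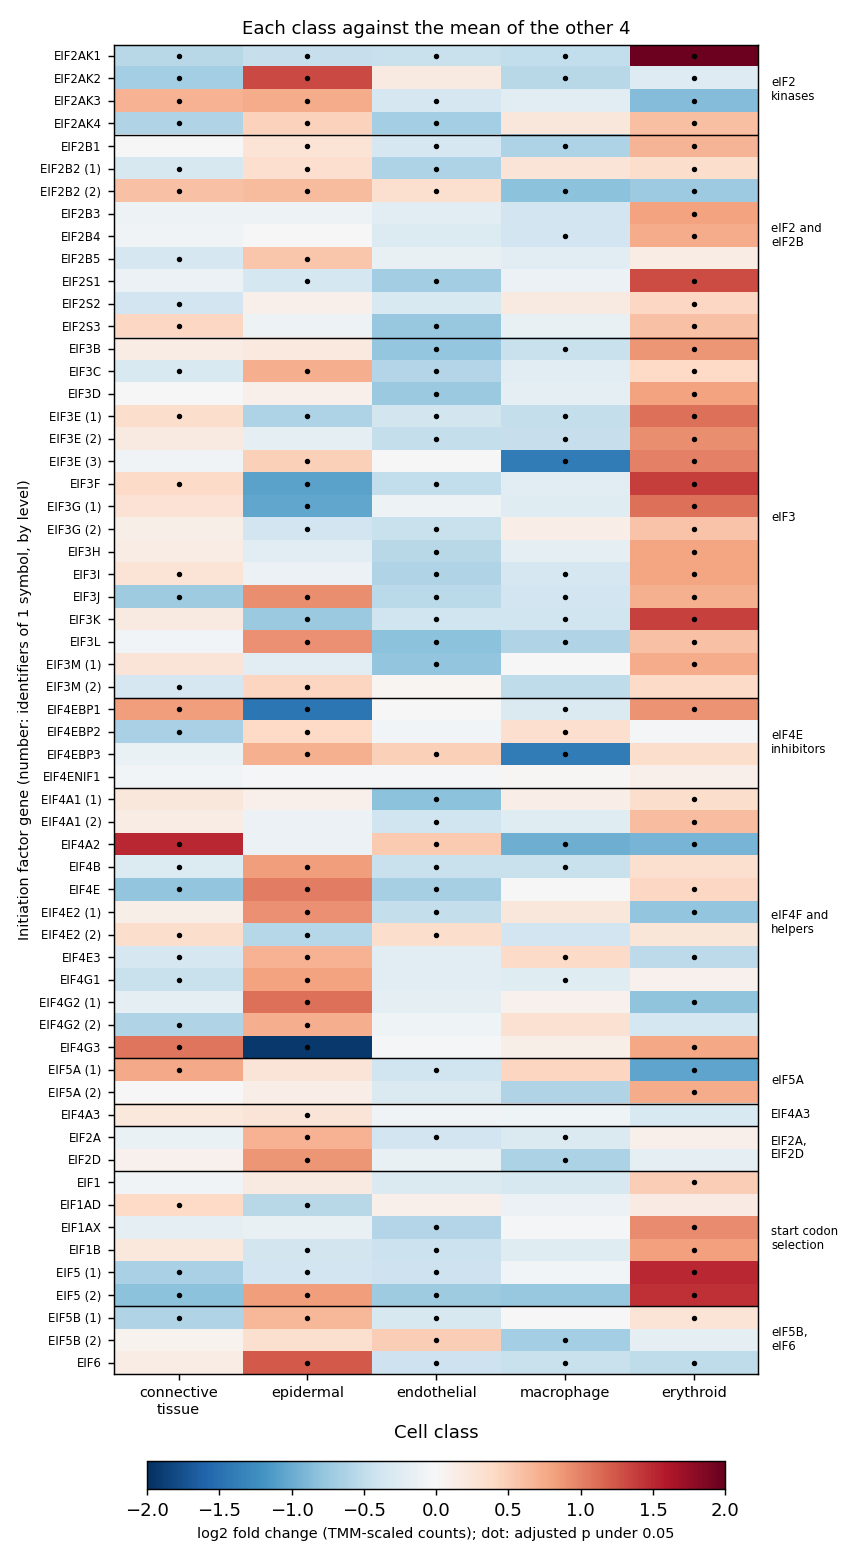
Log2 fold change of 59 initiation factor identifiers (rows, by factor group) in each of 5 cell classes (columns) against the mean of the other 4; a dot marks an adjusted p under 0.05. Numbers in brackets separate identifiers of 1 symbol; the erythroid column is red over nearly all eIF3 rows, and the endothelial column is blue over most of them. Values are with TMM; with total-count scaling the members' median was -1.43 in erythroid-like and 0.32 in endothelial-like cells.

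Among the start codon factors, all but 1 of 6 identifiers were higher in erythroid-like cells (17.3% of all genes), and 4 of 6 were lower in endothelial-like cells (22.3%). EIF5 (AMEX60DD018799), which makes eIF2 hydrolyse its GTP at the start codon, had a lowest, median and highest library of 99.1, 115 and 162 CPM in erythroid-like cells, against 20.7, 43.3 and 84.7 CPM over the other classes. The ranges did not overlap, and the log2 fold change was 1.51 ± 0.12 (SE, adjusted p = 2.4e-15 by edgeR). With total-count scaling its sign turned, to -0.37, which is 1.62 above the median of all genes in that fit, against 1.69 with TMM. EIF1, which guards the fidelity of start codon choice, averaged 518 CPM in erythroid-like cells and 340 to 457 CPM in the other classes (0.49 ± 0.14, adjusted p = 0.0035), within overlapping ranges. EIF1 and its paralog EIF1B were not shared out alike: EIF1 held 76.0% ± 2.65 of their joint UMIs in epidermal-like cells, the highest share in 8 of 8 libraries, and 65.8% ± 2.84 in erythroid-like cells. EIF1AD, a relative of eIF1A, was higher in connective tissue-like cells (45.1 CPM, 0.40) and lower in epidermal-like cells (26.4 CPM, -0.56).

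Of the 9 tested identifiers of eIF2 and eIF2B, 7 were higher and 1 lower in erythroid-like cells (17.3% and 27.5% of all genes). EIF2S1, the alpha subunit that the stress kinases phosphorylate, had 180.1, 321 and 452 CPM in the lowest, median and highest erythroid-like library, against 74.0, 126 and 225 CPM over the other classes. It was the highest class in 8 of 8 libraries, though the ranges met, with a log2 fold change of 1.30 ± 0.12 (adjusted p = 2.7e-12). EIF2S3, the subunit that binds GTP and the tRNA, was lowest in endothelial-like cells in 8 of 8 libraries, at 124 CPM on average (-0.76 ± 0.12, adjusted p = 1.4e-06). EIF2B5, the catalytic subunit of the exchange factor, was higher in epidermal-like cells at 77.1 ± 5.56 CPM, with 47.4 to 61.3 CPM in the others (0.56 ± 0.09, adjusted p = 2.6e-07).

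The 4 eIF2 kinases were not spread alike over the classes. In epidermal-like cells 3 were higher and 1 lower (35.1% and 30.8% of all genes), and in connective tissue-like cells 1 and 3 (32.5% and 27.4%). The counts were 0 and 3 in endothelial-like cells (22.6% and 22.3%) and 0 and 2 in macrophage-like cells (20% and 26%). They were 2 and 2 in erythroid-like cells (17.3% and 27.5%). EIF2AK1, the haem-regulated kinase known from red cells, had 80.4, 133 and 147 CPM in the lowest, median and highest erythroid-like library, against 28.2, 32.1 and 38.1 CPM over the 32 sums of the other classes. No value overlapped, and the other 4 classes averaged within 31.8 to 33.8 CPM, differing from each other by less than their spread. The log2 fold change was 1.96 ± 0.07 (adjusted p = 1.3e-26). It was 0.12 with total-count scaling, where it was 2.11 above the median of all genes, against 2.13 with TMM. As a share of kinase UMIs, which no scaling touches, EIF2AK1 held 57.2% ± 6.12 in erythroid-like cells and at most 34.4% in any library of another class.

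EIF2AK2, known in mammals as PKR and activated by double-stranded RNA, had 124, 138 and 171 CPM in the lowest, median and highest epidermal-like library, against 30.0, 59.2 and 95.7 CPM over the other classes. The ranges did not overlap (1.32 ± 0.08, adjusted p = 2.2e-19), and it held 63.6% of kinase UMIs there. Endothelial-like cells came next at 77.0 ± 11.5 CPM (0.18, not called), and the other classes averaged 47.7 to 60.1 CPM. EIF2AK3, the kinase of the endoplasmic reticulum membrane (PERK), was called higher in connective tissue-like (29.2 ± 3.67 CPM, 0.70) and epidermal-like cells (29.6 ± 5.60 CPM, 0.73), which did not differ beyond their spread, and was lowest in erythroid-like cells (11.3 ± 4.15 CPM, -0.87 ± 0.13, adjusted p = 3.4e-07). Among the kinases it took 24.5% in connective tissue-like cells, the highest share in 8 of 8 libraries, and 5.22% in erythroid-like cells, the lowest in 8 of 8. EIF2AK4, the amino acid sensor GCN2, averaged 9.85 to 21.3 CPM over the classes and was called higher in epidermal-like (0.46) and erythroid-like cells (0.59).

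**Figure D3:**
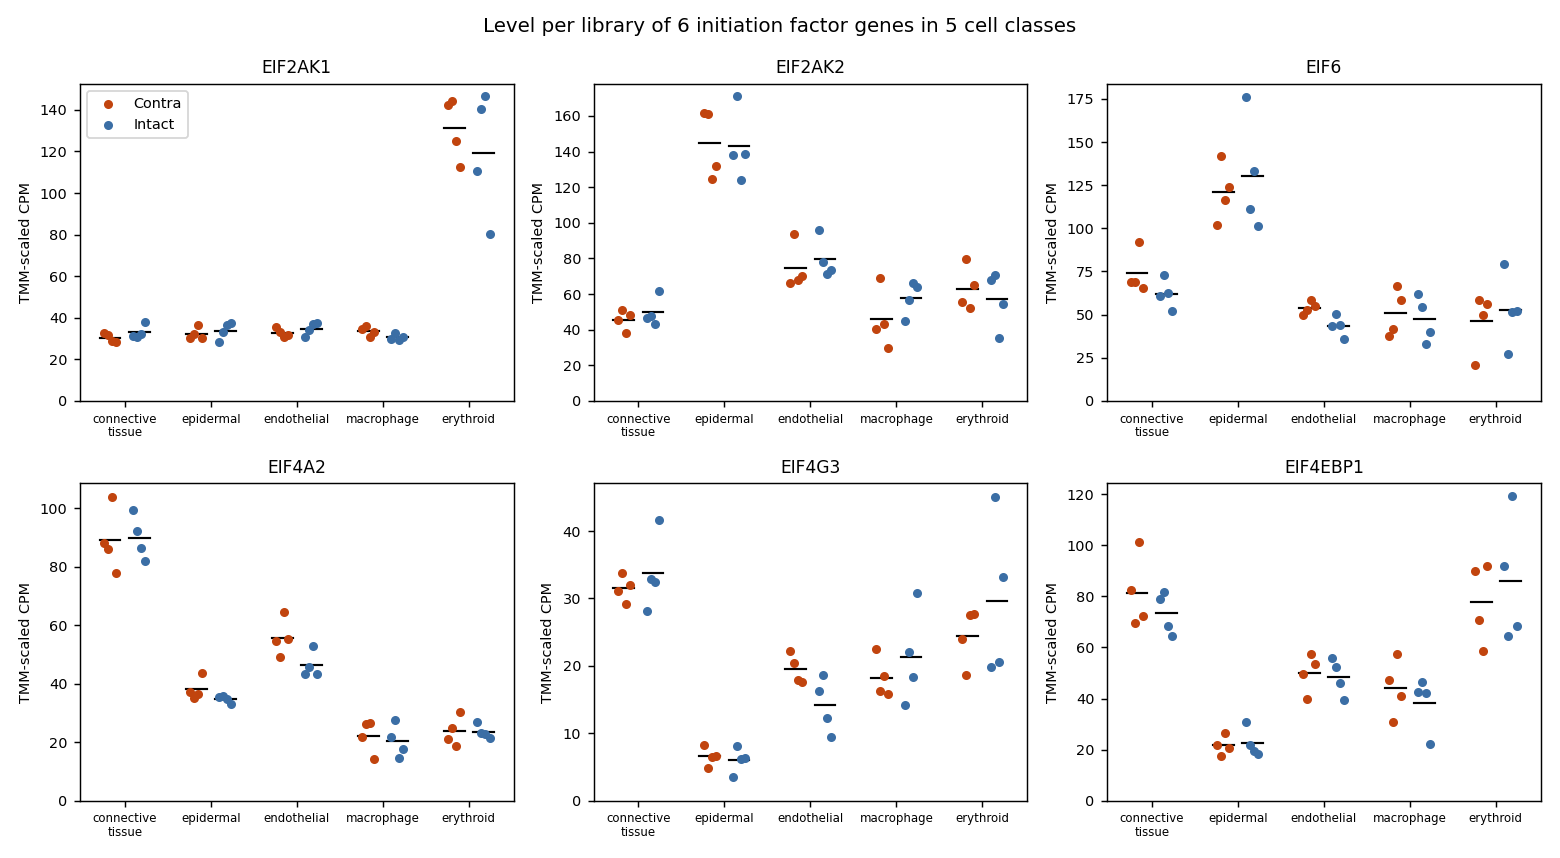
Level (TMM-scaled CPM) of 6 initiation factor genes in 5 cell classes; each point is a library, Contra left and Intact right, and bars are group means. EIF2AK1 stood apart in erythroid-like, EIF2AK2 and EIF6 in epidermal-like and EIF4A2 in connective tissue-like cells, while EIF4G3 was lowest in epidermal-like cells. The share of all genes without overlap was not counted.

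In erythroid-like cells 15 of 16 tested eIF3 identifiers were higher and none lower (17.3% and 27.5% of all genes), with a median of 0.80, against -0.18 for all genes. In endothelial-like cells none was higher and 13 were lower (22.6% and 22.3%), with a median of -0.51, against -0.02. EIF3F had 354, 684 and 977 CPM in the lowest, median and highest erythroid-like library, against 90.6, 279.8 and 575 CPM over the other classes, and EIF3K 144, 296 and 448 CPM against 66.9, 112 and 208 CPM. The erythroid-like medians lay above the highest values elsewhere, but the ranges overlapped (1.39 ± 0.14 and 1.37 ± 0.13, adjusted p = 2.8e-11 and 1.0e-12). With total-count scaling their signs turned, to -0.59 and -0.58, which is 1.40 and 1.41 above the median of all genes in that fit.

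In endothelial-like cells EIF3L averaged 61.6 ± 15.7 CPM (other classes 118 CPM, -0.82 ± 0.12, adjusted p = 3.1e-07). EIF3M (AMEX60DDU001006382) averaged 62.0 ± 24.1 CPM (others 112 CPM, -0.78 ± 0.13), and EIF3B, a subunit of the core, 69.5 ± 13.4 CPM (others 126 CPM, -0.78 ± 0.12). These 3 genes were below every other class in 4, 6 and 7 of 8 libraries, and their log2 fold changes shrank to between -0.14 and -0.08 with total-count scaling. In epidermal-like cells 5 of the 16 identifiers were higher and 5 lower, near the 35.1% and 30.8% of all genes. EIF3F was lower there, at 182 ± 81.6 CPM against a mean of 399 CPM (-1.07 ± 0.16, adjusted p = 1.6e-07). So was EIF3G (AMEX60DDU001010779), at 89.6 ± 46.6 against 183 CPM (-1.04 ± 0.16, adjusted p = 2.0e-07). A second EIF3G identifier, AMEX60DD031858, had 33352 UMIs in all kept cells, and its level is not given here. EIF3J, a loosely bound subunit, was higher at 96.5 ± 20.7 CPM (0.93), as were EIF3L at 166 ± 31.4 CPM (0.91) and EIF3C at 67.6 CPM (0.73). Connective tissue-like cells had EIF3J at 38.3 ± 3.88 CPM, lower than the mean of 67.4 CPM elsewhere (-0.71 ± 0.12, adjusted p = 8.3e-07). Macrophage-like cells had 8 identifiers lower and none higher (26% and 20% of all genes), EIF3L among them at 70.4 ± 19.9 CPM (-0.61).

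In the eIF4F group, 7 of 12 tested identifiers were higher and 2 lower in epidermal-like cells, where 35.1% of all genes were higher and 30.8% lower. The counts were 4 higher and 4 lower in erythroid-like (17.3% and 27.5% of all genes), 3 higher and 5 lower in connective tissue-like (32.5% and 27.4%), 2 higher and 5 lower in endothelial-like (22.6% and 22.3%), and 1 higher and 3 lower in macrophage-like cells (20% and 26%). The helicase paralogs differed in pattern. EIF4A2 had 77.9, 87.4 and 104 CPM in the lowest, median and highest connective tissue-like library, against 14.2, 31.6 and 64.4 CPM over the other classes. The ranges did not overlap (1.51 ± 0.07, adjusted p = 8.8e-23), and endothelial-like cells came second at 51.0 ± 7.21 CPM (0.52). Epidermal-like cells followed at 36.4 CPM, and erythroid-like and macrophage-like cells, at 23.6 ± 3.66 CPM (-0.93) and 21.3 ± 5.32 CPM (-0.98), did not differ from each other beyond their spread. EIF4A1 (AMEX60DD012738) was lower in endothelial-like cells, at 453 ± 104 CPM against a mean of 811 CPM (-0.83 ± 0.16, adjusted p = 2.4e-05). EIF4A2 thus held 10.0% of the joint EIF4A1 and EIF4A2 UMIs in endothelial-like and 9.77% in connective tissue-like cells, against 2.67 to 4.78% in the other classes. Under the alternative settings the EIF4A1 log2 fold change in endothelial-like cells ranged from -0.90 to -0.11, and it was not called under all of them.

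The eIF4G scaffolds were split between classes as well. EIF4G3 had 3.56, 6.36 and 8.24 CPM in the lowest, median and highest epidermal-like library, against 9.40, 22.1 and 45.0 CPM over the other classes. It was below all of them without overlap (-1.93 ± 0.11, adjusted p = 5.7e-20), and held 1.00% ± 0.34 of eIF4G UMIs there, against at least 3.33% in any other library. In connective tissue-like cells EIF4G3 averaged 32.7 ± 4.09 CPM (1.07 ± 0.09, adjusted p = 3.7e-14), the highest class in 7 of 8 libraries. EIF4G1, the main scaffold, was higher in epidermal-like cells, with 308, 342 and 397 CPM in the lowest, median and highest library against 135, 193 and 307 CPM elsewhere (0.80 ± 0.09), again with no overlap. EIF4G2 (AMEX60DD004812), a relative that lacks the eIF4E site, averaged 298 ± 63.2 CPM in epidermal-like cells (1.10 ± 0.10, adjusted p = 3.5e-13), the highest class in 8 of 8 libraries, and was lower in erythroid-like cells (106 ± 27.7 CPM, -0.80). In erythroid-like cells EIF4G1 accordingly held 63.5% of eIF4G UMIs, the highest share in 8 of 8 libraries, and EIF4G2 29.0%, the lowest in 8 of 8.

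The cap-binding protein EIF4E was higher in epidermal-like cells at 134 ± 20.1 CPM against a mean of 67.6 CPM (1.03 ± 0.09, adjusted p = 9.0e-14) and lower in connective tissue-like cells at 48.8 ± 6.84 CPM against 88.8 CPM (-0.78 ± 0.10, adjusted p = 6.4e-09). EIF4E2 (AMEX60DD012643), a cap-binding paralog known in mammals as a repressor, was lower in erythroid-like cells at 15.7 ± 4.64 CPM (-0.79). EIF4E3 was slightly higher in macrophage-like cells at 34.7 ± 14.0 CPM (0.38 ± 0.12, adjusted p = 0.0078), with libraries from 15.4 to 57.5 CPM that overlapped the other classes. EIF4B, which aids eIF4A, was higher in epidermal-like cells (38.6 ± 8.23 CPM, 0.84).

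EIF4EBP1, an eIF4E-binding protein, had 17.7, 21.2 and 30.9 CPM in the lowest, median and highest epidermal-like library, against 22.1, 58.0 and 119 CPM over the other classes (-1.45 ± 0.10, adjusted p = 9.4e-18). It was the lowest class in 8 of 8 libraries, although the ranges met at their ends. It was higher in erythroid-like cells at 82.0 ± 20.03 CPM (0.90) and in connective tissue-like cells at 77.4 ± 11.7 CPM (0.83), which did not differ beyond their spread. EIF4EBP2 was lower in connective tissue-like cells (37.4 ± 6.87 CPM, -0.65 ± 0.09) and higher in epidermal-like cells (66.5 ± 8.76 CPM, 0.39 ± 0.09) and macrophage-like cells (64.7 ± 15.4 CPM, 0.34 ± 0.10). EIF4EBP3 was lower in macrophage-like cells at 12.5 ± 3.03 CPM against a mean of 32.0 CPM (-1.39 ± 0.18, adjusted p = 1.1e-08), and higher in epidermal-like cells (38.6 ± 9.49 CPM, 0.71) and endothelial-like cells (32.6 ± 6.504 CPM, 0.47). EIF4EBP1 held 56.1% of the joint UMIs of the 3 binding proteins in connective tissue-like cells and 17.4% in epidermal-like cells. EIF4ENIF1, which carries eIF4E into the nucleus, was called in no class and averaged 34.7 to 36.3 CPM in all 5.

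At the step of subunit joining, EIF6, which keeps the large subunit from the small one, had 101, 120.2 and 176 CPM in the lowest, median and highest epidermal-like library, against 21.0, 53.5 and 92.0 CPM over the other classes. The ranges did not overlap (1.23 ± 0.10, adjusted p = 1.4e-15). EIF5B was also higher in epidermal-like cells, at 156 ± 40.5 CPM (0.67 ± 0.09), and lower in connective tissue-like cells at 76.4 ± 8.69 CPM (-0.60). EIF2A and EIF2D, which can deliver the initiator tRNA without eIF2, were both higher in epidermal-like cells, at 46.1 ± 4.35 and 11.2 ± 2.00 CPM (0.69 and 0.88), and were the top class there in 8 of 8 libraries. The helicase EIF4A3 of the exon junction complex varied little, from 28.1 to 36.9 CPM, and was called only in epidermal-like cells (0.26, adjusted p = 0.043). EIF5A (AMEX60DD001564), now known mainly for elongation, was sparse, with 12.2 ± 2.49 CPM in connective tissue-like cells (0.76) and 5.01 ± 2.06 CPM in erythroid-like cells (-1.06). Its other tested identifier, AMEX60DD052166, had only 1212 UMIs in all kept cells and went the other way, being called higher in erythroid-like cells. No listed gene had the symbol EIF5A2.

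Contra was then set against Intact within each class, to ask whether limbs labelled Contra differ in the same cells. No member passed an adjusted p of 0.05 by edgeR in any of the 5 classes, and neither did any other gene (0% of all genes in each class and over all kept cells). Members under an unadjusted p of 0.05 numbered 7 of 62 in connective tissue-like (6.34% of all genes), 0 of 59 in epidermal-like (4.86%) and 10 of 56 in endothelial-like cells (6.81%). They numbered 1 of 51 in macrophage-like (5.08%) and 4 of 51 in erythroid-like cells (5.57%), and over all kept cells 1 of 65 (7.49%). With DESeq2, 1 member passed, EIF3F in endothelial-like cells (adjusted p = 0.0279), where 0.419% of all genes did. No member passed with DESeq2 in connective tissue-like cells (0.0703% of all genes did), epidermal-like cells (0.0811%), macrophage-like cells (0.0742%) or erythroid-like cells (0.229%), or over all cells (0.0402%).

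**Figure D4:**
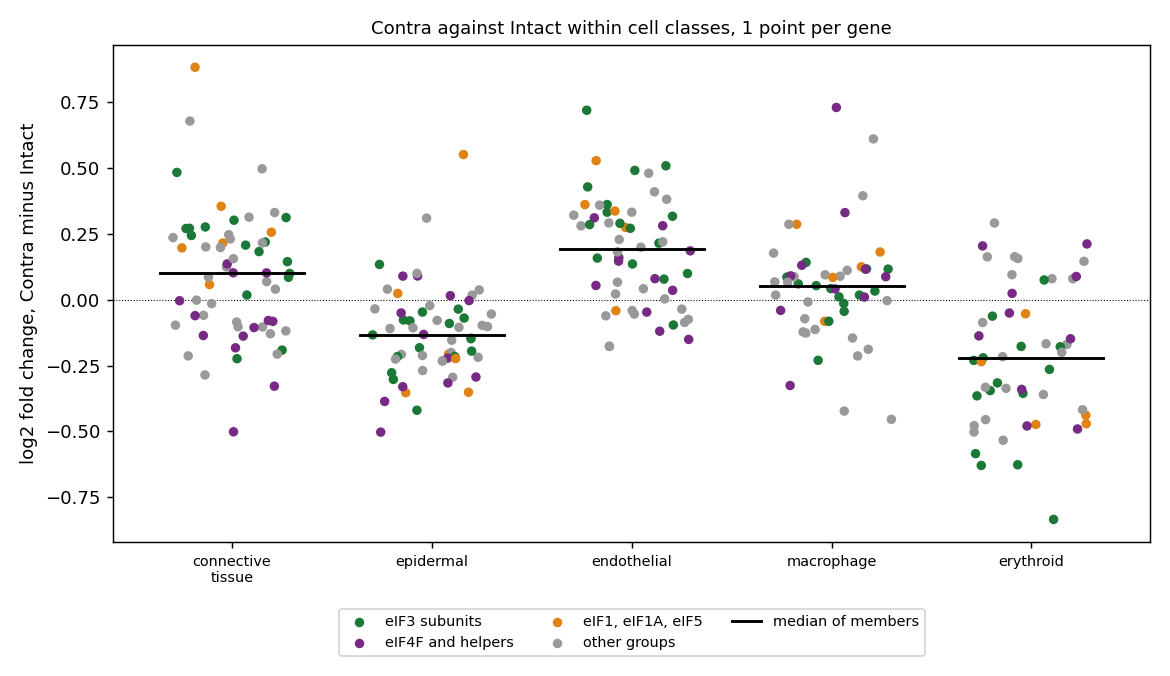
Log2 fold change of Contra minus Intact for each tested initiation factor identifier, by cell class; colours give the factor group, bars the median of the members and the dotted line no difference. The median was 0.10 in connective tissue-like, -0.13 in epidermal-like, 0.19 in endothelial-like, 0.05 in macrophage-like and -0.22 in erythroid-like cells. No single value passed an adjusted p of 0.05, and all values are with TMM.

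The members' fold changes differed in sign between classes. In endothelial-like cells 43 of 56 were positive, with a median of 0.19 against -0.01 for all genes. In epidermal-like cells 11 of 59 were positive, with a median of -0.13 against -0.03, and in erythroid-like cells 13 of 51, with a median of -0.22 against 0.01. The eIF3 subunits showed it most plainly, with 15 of 16 positive in endothelial-like cells (median 0.29), 14 of 16 in connective tissue-like cells (0.21), 1 of 16 in epidermal-like cells (-0.14) and 1 of 15 in erythroid-like cells (-0.32). These signs are with TMM and depend on it, most of all in erythroid-like cells. With total-count scaling the median of all genes was 0.47 there, with 92.4% of genes positive. In the other classes that median was between -0.09 and 0.06. It was 0.06 in epidermal-like cells, with 62% of genes positive, against 44.2% with TMM. In endothelial-like cells it was -0.09, with 36.1% positive against 49.1%. Both moves run against the members' direction, and the members' signs with total-count scaling are not given here. A test of the interaction of group and class called 0 of 60 members, with 9 under an unadjusted p of 0.05 and a smallest adjusted p of 0.514, for EIF1B. Of all 24265 genes tested, it called 17, and 1746 were under an unadjusted p of 0.05. The classes within a library share that library, so the signs of its genes are not independent.

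In endothelial-like cells the 10 members under an unadjusted p of 0.05 were all higher in Contra, 6 of them eIF3 subunits. EIF3M (AMEX60DDU001006382) had 109, 96.3, 140 and 125 CPM in Contra 1, 2, 3 and 5, against 68.7, 93.1, 57.4 and 49.9 CPM in Intact 1, 3, 4 and 5. The groups did not overlap, but Intact 3 came within a few CPM of Contra 2 (0.72 ± 0.19, adjusted p = 0.554). EIF3F had 432, 362, 497 and 414 CPM in Contra, against 335, 340, 260 and 262 CPM in Intact (0.51 ± 0.14, adjusted p = 0.598). Again Contra 2 was the lowest Contra library and Intact 3 the highest Intact one. EIF3H (192, 150.6, 211 and 210.1 CPM in Contra, 134, 150.5, 134 and 115 CPM in Intact) and EIF1B (236, 205.8, 261 and 234 CPM in Contra, 146, 205.6, 152 and 125 CPM in Intact) had the same lowest Contra and highest Intact library and near-touching ranges. Their log2 fold changes were 0.49 ± 0.14 for EIF3H and 0.53 ± 0.15 for EIF1B (adjusted p = 0.625 for each by edgeR). These genes were picked as the members with the smallest p in the class, so a lack of overlap follows in part from that choice.

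**Figure D5:**
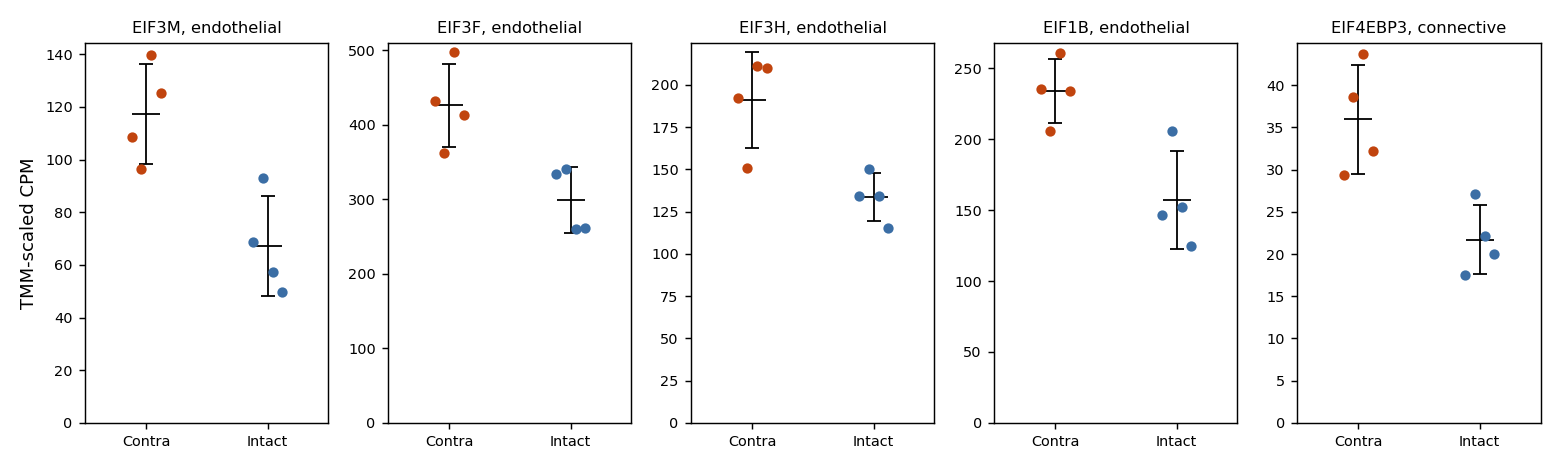
TMM-scaled CPM per library of 4 initiation factor genes in endothelial-like cells and of EIF4EBP3 in connective tissue-like cells, Contra left and Intact right; bars are mean ± SD of 4 libraries. The groups did not overlap in any panel, but EIF3H (150.6 and 150.5 CPM) and EIF1B (205.8 and 205.6 CPM) nearly touched in Contra 2 and Intact 3. The panels show the members with the smallest p in their class, so a lack of overlap follows in part from that choice. The share of all genes without overlap was not counted.

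Summed over members, endothelial-like cells had 61.7 ± 3.59 UMIs per 10000 in Contra and 54.9 ± 4.44 in Intact (SD, n = 4 each), with ranges of 57.4 to 66.0 and 50.5 to 59.8 that overlapped. Intact 1 and Intact 5 had 48 and 64 cells of this class, against 251 to 511 in the Contra libraries, and median depths were 6341 to 9998 UMIs in Contra and 4130 to 10972 UMIs in Intact; the part of depth in the difference was not tested. Drawn down to 2000 UMIs per cell, the sums were 59.1 ± 3.85 in Contra and 52.0 ± 4.996 in Intact. The draw left out 129 Contra and 61 Intact cells under that depth. It keeps the expected member share of each cell, so it is no test of depth. With the replicate number as a block, EIF3M, EIF3F, EIF3H and EIF1B passed in these cells (adjusted p = 0.0044 to 0.0146, 1.58% of all genes called), and without the filter on low counts EIF3M, EIF3F and EIF1B did (0.478%). The labels do not say that a number pairs libraries.

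In connective tissue-like cells the member with the smallest p was EIF4EBP3. It had 29.3, 38.6, 43.7 and 32.2 CPM in Contra 1, 2, 3 and 5, against 17.5, 27.1, 22.1 and 20.03 CPM in Intact 1, 3, 4 and 5. Every Contra library was above every Intact one (log2 fold change 0.68 ± 0.16, adjusted p = 0.680 by edgeR). As EIF4EBP3 was picked by its p, that follows in part from the choice, and the share of all genes without overlap was not counted. The means were 35.95 ± 6.43 CPM in Contra and 21.7 ± 4.09 CPM in Intact (SD, n = 4 each), and its share of the UMIs of the 3 binding proteins was 16.6, 22.8, 19.3 and 19.9% in Contra, against 11.4, 15.3, 15.2 and 15.6% in Intact. With the replicate block EIF4EBP3 (0.72, adjusted p = 0.0014), EIF3M and EIF1B passed, where 1.02% of all genes did. That contrast rests on libraries numbered 1, 3 and 5 alone, as numbers 2 and 4 occur in a single group each.

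Next by p in these cells came EIF3M, EIF4B and EIF1AD. EIF3M averaged 161 ± 37.9 CPM in Contra and 114 ± 22.7 CPM in Intact (0.48 ± 0.17, adjusted p = 0.719), with overlapping ranges. EIF1AD had 55.6, 58.5, 59.8 and 60.3 CPM in Contra, against 52.1, 54.2, 45.3 and 49.6 CPM in Intact, with no overlap (0.22 ± 0.08, adjusted p = 0.749). It was picked by its small p, so the lack of overlap follows in part from that choice. The share of all genes without overlap was not counted. EIF4B had 22.5, 21.97, 23.7 and 21.7 CPM in Contra, against 30.0, 22.2, 30.5 and 33.4 CPM in Intact (-0.33 ± 0.12, adjusted p = 0.747), where Intact 3 lay among the Contra libraries. The share of eIF3 in the members' UMIs of these cells was 32.5 to 34.4% in Contra and 31.3 to 32.4% in Intact. That of eIF4F was 25.4 to 26.0% in Contra and 26.6 to 28.9% in Intact. Neither range overlapped, though those of eIF3 nearly touched, and both shares are parts of the same total. In how many factor groups and classes the ranges did not overlap was not counted, so this shows nothing particular to these groups.

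In erythroid-like cells none of the fold changes passed, and 13 of 51 were positive. EIF3G (AMEX60DDU001010779) had 51.9, 85.2, 56.4 and 88.7 CPM in Contra 1, 2, 3 and 5, against 158, 72.0, 155 and 120.4 CPM in Intact 1, 3, 4 and 5, on the scale of this fit, which is not that of the fit between classes. Intact 3 lay among the Contra libraries and the other Intact libraries above all of them (-0.83 ± 0.27, adjusted p = 0.565). Without Intact 3 the log2 fold change was -1.04 (adjusted p = 0.0456), where 0.802% of all genes were called. The other EIF3G identifier, AMEX60DD031858, was not among the members under an unadjusted p of 0.05. EIF3I and EIF3K also had Intact 3 as their lowest Intact library, at 67.0 ± 14.9 and 82.2 ± 22.6 CPM in Contra and 104 ± 29.7 and 128 ± 34.8 CPM in Intact (-0.63 for each, adjusted p = 0.820 and 0.857). EIF1AX, the eIF1A gene, had a log2 fold change of -0.47 (adjusted p = 0.874) that became 0.04 with total-count scaling. Summed over members Contra stood at 25.7 ± 0.668 UMIs per 10000 and Intact at 23.5 ± 1.83, opposite in direction to the median of the members. That sum is per total UMIs, while the median is with TMM.

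Epidermal-like and macrophage-like cells gave the fewest small p-values. In epidermal-like cells EIF4G2 (AMEX60DD004812) had 264, 362, 313 and 323 CPM in Contra, against 524, 299, 411 and 353 CPM in Intact (-0.33 ± 0.20, adjusted p = 0.962), and the groups overlapped. Its minor copy (AMEX60DD045603, -0.50), a minor EIF5B row (0.31) and EIF2B1 (-0.23) had the same adjusted p. In macrophage-like cells EIF4B had 20.9, 35.8, 30.9 and 34.7 CPM in Contra, against 14.8, 20.8, 23.6 and 10.6 CPM in Intact (0.73 ± 0.30, adjusted p = 0.954), with Contra 1 inside the Intact range. EIF2AK2 (-0.45), EIF2AK4 (0.61) and EIF1AX (0.29) followed there, each with an adjusted p from 0.979 to 0.981. The 4 eIF2 kinases had no member with an unadjusted p under 0.10 in any class.

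Over all kept cells no member was called, but leaving out Intact 3 gave 3 members higher and 5 lower, where 15.6% of all genes were called. EIF4G3 (0.80), EIF4A2 (0.62) and EIF1AD (0.44) were the ones higher and EIF4E (-0.76), EIF3J (-0.72), EIF2D (-0.52) and both EIF4G2 identifiers (-0.78 and -0.62) the ones lower, with adjusted p from 0.014 to 0.0425. Connective tissue-like cells made up 18.8 to 49.9% of the kept cells in Contra and 10.3 to 49.0% in Intact, and epidermal-like cells 6.67 to 40.4% in Contra and 8.11 to 67.4% in Intact, with Intact 3 holding the 49.0% and the 8.11%. With Intact 3 kept, EIF4A2, EIF4E and EIF1AD had 0.42, -0.56 and 0.32 over all kept cells (adjusted p = 0.514 for each by edgeR). Values of the other genes with it kept are not given here. The values within classes that follow include Intact 3, unlike the calls above. Within connective tissue-like cells EIF4A2 had a log2 fold change of -0.00, EIF4G3 of -0.08 and EIF4E of -0.14. Within epidermal-like cells they had 0.09, 0.09 and -0.13. EIF1AD had 0.22 within connective tissue-like cells, with 4 Contra libraries above every Intact one. The EIF4G2 identifiers had -0.50 and -0.33 within epidermal-like cells. Values of EIF3J and EIF2D within classes are not given here. The part of the class mix in these calls was not tested.

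Other translation factors and regulators were read from a list of 37 symbols, of which 32 were found with 55 identifiers, 41 of them tested between classes. In erythroid-like cells 21 were higher and 2 lower (17.3% and 27.5% of all genes), and in endothelial-like cells 2 and 18 (22.6% and 22.3%). In macrophage-like cells 7 were higher and 16 lower (20% and 26%), in epidermal-like cells 17 and 9 (35.1% and 30.8%), and 12 and 14 in connective tissue-like ones (32.5% and 27.4%). PPP1R15B, which brings a phosphatase to the alpha subunit of eIF2 and so opposes the kinases, averaged 159 CPM in erythroid-like cells (2.99 ± 0.09), 13.2 CPM in connective tissue-like cells (-1.50 ± 0.10) and 8.58 CPM in endothelial-like cells (-2.10 ± 0.12). DDIT3, a stress transcription factor downstream of eIF2 phosphorylation, was lower in erythroid-like cells (-2.35 ± 0.20), where EEF1A1 (AMEX60DD006173), an elongation factor, was higher (1.63). ATF4, on the same list, was called higher there too (0.86). In endothelial-like cells DDIT3 was called higher (0.69) and ATF4 lower (-0.77), and so they were in connective tissue-like cells (0.66 and -0.39). In macrophage-like cells DDIT3 was higher (1.14) and ATF4 not called (-0.19). In epidermal-like cells ATF4 was higher (0.48) and DDIT3 not called (-0.14). What these levels mean for eIF2 phosphorylation was not tested. ASNS, the asparagine synthetase gene, was higher in macrophage-like (47.5 CPM, 1.65) and erythroid-like cells (27.9 CPM, 0.62), and lower in endothelial-like cells (6.06 CPM, -1.93). IMPACT (AMEX60DD039524, 3.29 CPM, 1.45 ± 0.39) and CHAC1 (5.60 CPM, 1.18 ± 0.35) were higher in macrophage-like cells, both at low levels. LARP4, an RNA-binding protein of translated mRNA, was higher in epidermal-like cells (137 CPM, 1.74) and lower in connective tissue-like cells (-1.12), where MCTS1 was lower too (-1.08). The GIGYF2 identifiers differed in epidermal-like cells: AMEX60DD002621, at 7.89 CPM, was higher (1.00), AMEX60DD012968, at 138 CPM, was lower (-0.34), and AMEX60DD002620 was not called (0.03). EEF1A1 (AMEX60DD006173) was lower in epidermal-like cells (-1.02), and MKNK2, a kinase of eIF4E, was lower in endothelial-like cells (-1.06). Between Contra and Intact none of the list passed in any class or over all cells. Under an unadjusted p of 0.05 were 3 of 47 in connective tissue-like (6.34% of all genes), 1 of 44 in epidermal-like (4.86%) and 5 of 36 in endothelial-like cells (6.81%). In macrophage-like cells there were 2 of 30 (5.08%) and in erythroid-like cells 5 of 30 (5.57%).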

How the data were processed

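Limb cells of 8 libraries were profiled with the 10x Genomics 3' v3.1 droplet kit, per the labels' protocols. The authors deposited 1 matrix of UMI counts, whole numbers that had not been normalized, in which each cell held at least 450 genes. The submitters' processing notes name kallisto 0.48.0 and Seurat 4.2.0 without their role. The sources used here do not give the genome build, the use of strand or the cell filters, and the identifiers were matched to no annotation, so coordinates and sequences were not used here. Barcode prefixes assigned each cell to its library.

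Members, class markers, factor groups and the list of other translation factors were chosen with earlier results of these data known. Class markers were used in the gate if detected in at least 50 cells and in under 50% of cells; how markers were scored was decided with the data in view. Exactly 3 markers were found in 1164 connective tissue-like cells and in 18 to 103 cells of each other tested class, and 389 and 2 to 62 cells were 1 marker short. Counts were summed per library and class (at least 20 cells) with numpy 2.4.6 and pandas 2.3.3 on Python 3.11.15, filtered with filterByExpr, scaled by TMM and fitted with edgeR 4.0.16 (limma 3.58.1, R 4.3.3), with Benjamini-Hochberg adjustment over all genes tested. CPM levels are scaled within each fit. DESeq2 1.42.0 was an alternative, beside no TMM, no filter on low counts, a stricter gate of 4 markers, leaving out each library, the replicate block, a term for libraries numbered 1 and 3, 2000 UMIs drawn per cell, and 2 settings added after the data were seen: erythroid-like sums left out, and the 10 most abundant erythroid-like genes left out with no TMM. Fits were tested on simulated data. The named genes were up to 4 per class and direction with the largest called log2 fold change at a mean of at least 20 CPM, the 4 with the smallest p per class for Contra against Intact, and anchor genes of each factor group; EIF1B, EIF1AD, EIF2S3, EIF2A, EIF2D, EIF3C, EIF3J, EIF4B and EIF4ENIF1 between classes were added after their values were seen. Adjusted p-values that DESeq2 gave as missing stayed missing.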

Additional observations from a re-analysis of the deposited data

How the results depend on the processing

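Of 532 values of 36 named genes between classes under the alternatives, 519 kept their direction and side of the threshold and 10 were weaker. Weaker means the same direction but no longer called. These values were of EIF2AK1 in erythroid-like cells, and of EIF4A1, EIF3B, EIF3L and EIF3M in endothelial-like cells. In macrophage-like cells they were of EIF2AK2, EIF3L, EIF4E3 and EIF4EBP2. The 3 that reversed were EIF5 (-0.37), EIF3F (-0.59) and EIF3K (-0.58) in erythroid-like cells without TMM, and EIF1AX reversed there between Contra and Intact (0.037). Scaling moved the counts of members most. Shares of all genes called follow in brackets. Without TMM the members higher and lower were 37 and 7 in connective tissue-like (51% and 15.4%), 42 and 6 in epidermal-like (46.8% and 17.6%), 35 and 0 in endothelial-like (62.9% and 6.75%), 29 and 3 in macrophage-like (36.4% and 11.7%) and 0 and 57 in erythroid-like cells (2.19% and 92.8%). Without the filter, 24 were higher and 11 lower in connective tissue-like cells (21.9% and 8.29%) and 0 higher in macrophage-like cells (7.45%). With erythroid-like sums left out, 22 were higher in connective tissue-like cells (30.8%), and 8 higher and 11 lower in macrophage-like cells (20% and 25.5%). With the 10 erythroid-like genes left out and no TMM, 22 were lower in epidermal-like cells (40.7%), and 8 higher and 19 lower in endothelial-like cells (32.3% and 17.8%). DESeq2 gave 22 lower in epidermal-like cells (40.9%). Leaving out each library gave 2 to 5 higher in endothelial-like cells (2 without Contra 3, 3 without Contra 1, Contra 2, Contra 5 or Intact 5; 21.1 to 23.1% of all genes) and 1 to 3 higher in macrophage-like cells (1 without Contra 3; 18.6 to 21.5%). The causes of these moves were not tested.

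Between Contra and Intact, DESeq2 called 1 member higher in endothelial-like cells, no filter 3 and the replicate block 4. The replicate block called 3 higher in connective tissue-like cells and changed no other call. Its contrast rests on the numbers found in both groups, 1, 3 and 5. Leaving out each library gave 0 to 1 lower in erythroid-like cells, and 0 to 3 higher and 0 to 5 lower over all cells, each time with the calls made without Intact 3. The numbers were not taken to pair libraries, as the labels do not say that they do. Deviations from the group means correlated at -0.19 to 0.01 for number 1, 0.09 to 0.62 for number 3 and 0.09 to 0.26 for number 5. Over all kept cells both Contra 1 and Contra 3 correlated best with Intact 3. These correlations do not settle whether numbers pair libraries. Drawn to 2000 UMIs per cell, the summed level was 58.3 per 10000 in connective tissue-like, 55.3 in epidermal-like, 56.3 in macrophage-like and 28.4 in erythroid-like cells. Cells under that depth were left out, among them 600 Contra and 556 Intact epidermal-like cells. Low counts limit what can be seen of EIF3A, EIF4H and the minor copies.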

Other observations

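The smaller marker-gated classes were too few for a test, and their pooled levels are given with exact 95% intervals that cover counting error only. In 118 T cell-like cells EIF4G3 stood at 67.9 CPM (55.9 to 81.6) without TMM and held 11.2% (9.36 to 13.4) of eIF4G UMIs, and EIF6 stood at 124 CPM (107 to 142). In 107 muscle fibre-like cells EIF4EBP1 stood at 112 CPM (86.7 to 142) and EIF2AK1 at 23.4 CPM (12.8 to 39.2). In 251 mast cell or basophil-like cells, which held a median of 3 markers of another class, EIF2AK3 made up 28.3% (24.9 to 32.0) of the UMIs of the eIF2 kinases and EIF2AK1 28.2% (24.7 to 31.8). Member UMIs per 10000 were 63.9 to 78.6 in the 3 libraries with at least 20 T cell-like cells, and 39.9 to 48.9 in the 4 with at least 20 mast cell or basophil-like cells. Values per library of members within a class and group were checked for a library far from the others in 60 groups, and none was flagged. This does not show that no library stood apart. EIF3G in erythroid-like cells was at 72.0 CPM in Intact 3, against 120.4 to 158 CPM in the other Intact libraries. Without Intact 3, 15.6% of all genes were called over all kept cells, against 0% with it.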
